A study of Mus musculus with 40 samples.

Results

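Transcripts of 10 circadian clock genes, *Per1*, *Per2*, *Per3*, *Cry1*, *Cry2*, *Arntl* (also called Bmal1), *Clock*, *Dbp*, *Nr1d1* (REV-ERBα) and *Ciart*, were followed in the hippocampus and frontal cortex of mice colonized with human gut microbes. The genes were chosen by name, as the core loop of the clock and its outputs, and all 10 were found among the 47643 Ensembl genes of the count tables. Germ-free Swiss Webster mice, described in the study's methods as wild-type females of 6 to 8 weeks on a control diet, received stool that a donor gave before (pre-KD) or during (post-KD) treatment with a ketogenic diet. Brain tissue was taken on day 4 after colonization. There were 10 donors, hence 20 cohorts, and 1 hippocampus and 1 frontal cortex library per cohort, each pooled from 6 mice, so that the spread between single mice was not seen. The 4 groups of 10 libraries were hippocampus pre-KD, hippocampus post-KD, frontal cortex pre-KD and frontal cortex post-KD, and every mouse of all 4 groups was born germ free, ate the same diet and carried a transferred human microbiota. No hour of tissue collection and no light schedule was found in the labels or the methods.

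In the mammalian clock, ARNTL and CLOCK form a heterodimer that binds E-box elements and switches on the *Per* and *Cry* genes, whose proteins then return to the nucleus and repress that heterodimer. A second loop runs through *Nr1d1*, which the heterodimer also induces and whose protein represses *Arntl*, so that *Arntl* transcripts are low at the hour when *Nr1d1* transcripts are high. *Dbp* is a direct output with a large daily swing, and in peripheral tissues and most brain regions, *Arntl* peaks close to opposite to *Dbp*, *Nr1d1* and the *Per* genes. These genes were set side by side in pre-KD and post-KD recipients, between both regions of a cohort, to ask whether the regions shared a clock phase, and with one another within a region.

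Library totals lay between 1140756 and 1947416 counts in hippocampus and between 1188447 and 2095352 in frontal cortex. The hippocampus libraries of pre-KD donors 5 and 7 had the fewest genes with a count, 10223 and 10528, against a median of 12482 in that region, and the lowest median correlation with the other hippocampus libraries, 0.649 and 0.662. Levels are given as CPM, counts scaled to a common library size by TMM, and sums over marker lists as CPM of the plain library total. The sum of 4 Y-linked genes lay between 81.3 and 175 in the 8 libraries of donors 9 and 10 and between 0 and 16.4 in the other 32, which goes against the stated sex of the recipients. For the likeness between regions, values without the libraries of donors 9 and 10 are given beside the results or in the closing section. For the diet comparison they are given there for some of the clock genes only. Of the region markers, *Prox1*, a transcription factor of dentate granule cells, averaged 81.1 ± 28.8 CPM in hippocampus and 21.3 ± 11.7 in frontal cortex (SD, n = 20 each) and was higher in the hippocampus in 19 of 20 cohorts. Of the other hippocampus markers listed, *C1ql2*, *Wipf3*, *Spink8* and *Fibcd1* were higher in the hippocampus in 20, 20, 17 and 13 cohorts. *Bok*, of the same list, had the lower mean in the hippocampus and was higher there in only 7 cohorts. *Lamp5*, a cortical interneuron and upper-layer marker, averaged 40.4 ± 24.6 and 89.0 ± 22.5 CPM and was higher in the hippocampus in 2 cohorts. *Tshz2* and *Fezf2*, of the same list of frontal cortex markers, ran the other way, at 104 ± 37.5 against 42.1 ± 14.6 CPM and 66.2 ± 29.1 against 34.0 ± 15.2 CPM, and were higher in the hippocampus in 19 and 17 cohorts. Frontal cortex libraries also held striatal transcripts, with *Ppp1r1b* at 329 ± 68.0 CPM against 63.4 ± 28.7, and hippocampus libraries held choroid plexus transcripts, with *Ttr* at 1589 ± 872 CPM against 140 ± 150. The sums of 6 frontal cortex markers overlapped, from 206 to 428 CPM in hippocampus and from 181 to 401 in frontal cortex, so this list did not set the regions apart. In such bulk samples, fewer cells of a type and less RNA per cell cannot be told apart.

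To place the genes in the loop, promoter sequences of RefSeq (mouse build GRCm38.p6), available for 9 of the 10 genes, were searched from 250 bases before to 50 bases after the start on both strands for the E-box CACGTG, bound by the ARNTL and CLOCK heterodimer, the D-box TTATGTAA, bound by DBP, and the element TAGGTCA, bound by the NR1D and ROR receptors. Of 32851 promoters in the table, 7.15% held the E-box, 0.938% the D-box and 2.61% the receptor element. *Ciart* held 3 E-boxes, whose first bases lay 116, 58 and 44 bases before the start, *Cry1* held 1 at 60 bases and *Per1* 1 at 166 bases. *Per3* held 2 D-boxes, at 205 and 158 bases. *Arntl*, *Clock* and *Per1* had more than 1 promoter in the table. The *Arntl* promoter at chr7:113207261-113207560 held the receptor element 31 bases after the start, and that at chr7:113207215-113207514 held none of the 3 motifs. The *Per1* promoter at chr11:69099902-69100201 also held none. The other promoters searched held none of the 3 motifs, which says only that these letters are not in this window. The 250 bases before the start of these 4 genes are printed because they hold a searched element, the E-box in *Ciart*, *Per1* and *Cry1* and the D-box in *Per3*, and each is written 5′ to 3′ on the strand of the gene with the motif in capitals.
*Ciart*, chr3:95882229-95882478, minus strand, E-boxes in capitals: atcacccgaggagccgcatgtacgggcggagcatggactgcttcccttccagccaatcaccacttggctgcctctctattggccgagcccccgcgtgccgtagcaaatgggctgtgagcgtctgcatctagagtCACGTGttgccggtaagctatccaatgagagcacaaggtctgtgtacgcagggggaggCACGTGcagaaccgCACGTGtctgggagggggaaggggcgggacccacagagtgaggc
*Per1*, chr11:69098699-69098948, plus strand, E-box in capitals: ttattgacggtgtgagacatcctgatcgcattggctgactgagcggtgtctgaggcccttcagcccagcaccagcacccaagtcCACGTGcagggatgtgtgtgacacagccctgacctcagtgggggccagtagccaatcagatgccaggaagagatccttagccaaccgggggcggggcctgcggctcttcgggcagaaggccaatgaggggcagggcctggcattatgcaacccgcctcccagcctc
*Cry1*, chr10:85185055-85185304, minus strand, E-box in capitals: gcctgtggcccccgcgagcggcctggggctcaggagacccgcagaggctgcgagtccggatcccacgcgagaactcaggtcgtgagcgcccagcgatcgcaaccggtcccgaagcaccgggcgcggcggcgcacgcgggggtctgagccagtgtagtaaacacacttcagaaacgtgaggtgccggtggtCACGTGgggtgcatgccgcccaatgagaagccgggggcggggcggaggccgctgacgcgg
*Per3*, chr4:151044666-151044915, minus strand, D-boxes in capitals: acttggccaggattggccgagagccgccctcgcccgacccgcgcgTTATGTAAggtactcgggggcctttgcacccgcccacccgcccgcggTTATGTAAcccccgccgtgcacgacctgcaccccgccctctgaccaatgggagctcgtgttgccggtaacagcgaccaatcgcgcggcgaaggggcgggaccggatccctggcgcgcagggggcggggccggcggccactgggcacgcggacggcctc

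Per kilobase of exon, *Nr1d1* and *Dbp* were the most abundant of the clock transcripts and *Arntl* the least, in both regions. This order holds for reads spread over whole transcripts, as the TruSeq kit of the labels gives, whereas a 3′ tag kit, which a resource list of the study names, would be read as CPM. On that scale *Clock* was highest, at 92.6 and 107 CPM in the 2 regions, and *Ciart* in the hippocampus (4.39 CPM) and *Arntl* in the frontal cortex (7.77 CPM) were lowest. Per kilobase, in the hippocampus the mean level over 20 libraries was 17.7 ± 6.01 CPM per kb for *Nr1d1*, 15.7 ± 8.44 for *Dbp* and 9.63 ± 3.63 for *Cry2* (SD). *Per1* followed at 6.75 ± 4.35, *Clock* at 6.75 ± 2.94, *Per3* at 4.82 ± 1.97 and *Per2* at 3.82 ± 1.94 CPM per kb. The lowest levels were those of *Cry1* at 2.56 ± 3.45, *Ciart* at 1.94 ± 2.39 and *Arntl* at 1.19 ± 1.51 CPM per kb. The frontal cortex had the same order down to *Per3*, with 22.4 ± 8.53 CPM per kb for *Nr1d1* and 1.03 ± 0.792 for *Arntl*, while *Per2*, at 3.14 ± 1.58, stood below *Cry1* at 4.57 ± 2.22 and *Ciart* at 3.69 ± 2.80. Within either region, the mean ± SD range of every gene overlapped that of its neighbor in the order, and a gene was above its neighbor in 11 to 16 of 20 hippocampus libraries and in 8 to 18 of 20 frontal cortex libraries.

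**Figure D1:**
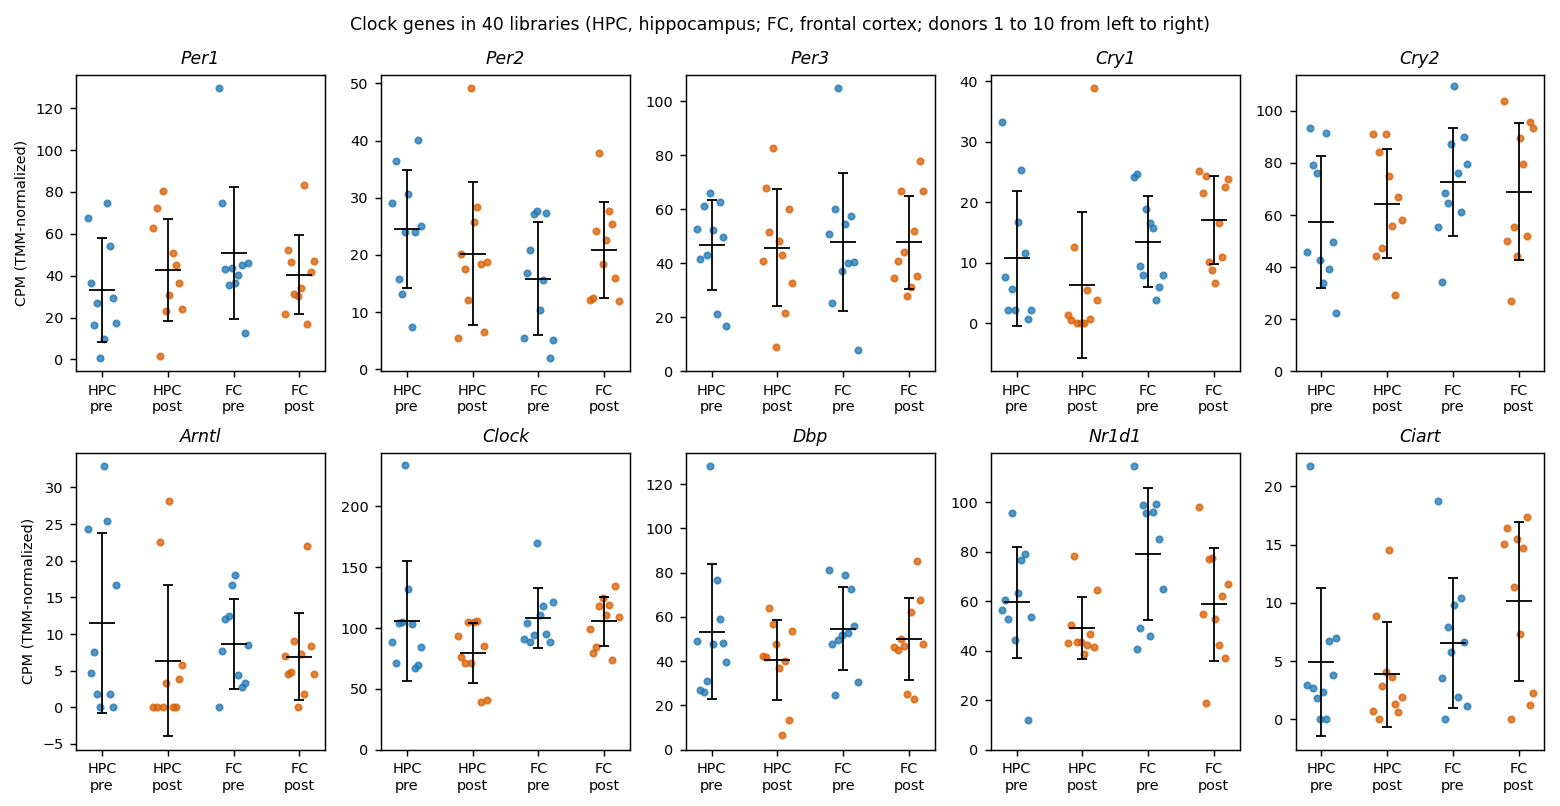
CPM of each clock gene in all 40 libraries, with 1 point per library, donors 1 to 10 from left to right within a group, and bars giving the mean ± SD of 10 libraries (HPC, hippocampus; FC, frontal cortex). In every panel the 4 groups overlap, and single libraries stand far from their group, such as *Clock* at 234 CPM in pre-KD donor 5 hippocampus.

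The spread between libraries of the clock genes was near that of other genes at like counts. The coefficient of variation over the 20 hippocampus libraries ran from 34.0% for *Nr1d1* to 135% for *Cry1*, whereas the mean counts of these genes alone would give 8.38% for *Clock* to 38.2% for *Ciart*. The frontal cortical values ran from 20.7% for *Clock* to 76.6% for *Arntl*, with 7.47% to 27.0% from counting alone. The observed spread was 2.97 to 5.21 times the counting spread in hippocampus and 2.48 to 4.88 times in frontal cortex. Over all 9735 and 8071 genes within the range of mean counts of the clock genes, this ratio had medians of 3.94 and 3.26, and it was above 1 for 100% of them.

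**Figure D2:**
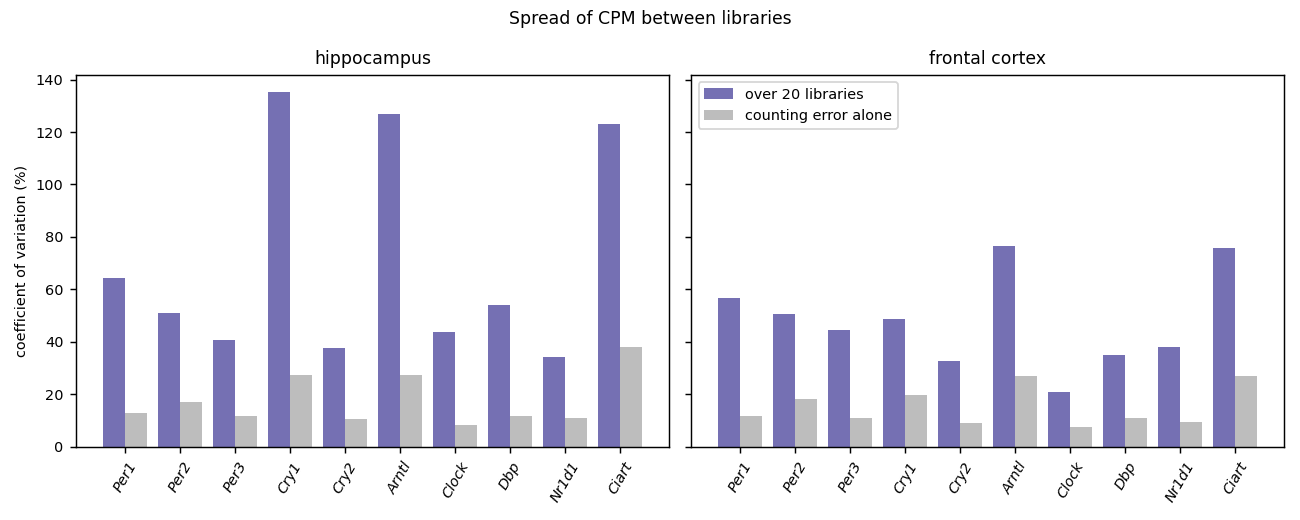
Coefficient of variation (%) of each clock gene's CPM over the 20 libraries of a region (purple) beside the value that counting error alone would give at the gene's mean count (gray). All 10 genes lie above counting error in both regions, as do all genes at like counts, by 2.97 to 5.21 times in hippocampus and by 2.48 to 4.88 times in frontal cortex.

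The positive limb of the clock was first compared between recipients. *Arntl* (ENSMUSG00000055116, chromosome 7 from 113207465 to 113314126 on build GRCm38) was scarce, with no count in 7 hippocampus and 2 frontal cortex libraries. Its lowest, median and highest CPM were 0, 6.15 and 32.9 in hippocampus pre-KD and 0, 1.64 and 28.2 in hippocampus post-KD, with donor 6 the highest in both. In the frontal cortex the values were 0, 8.12 and 18.1 pre-KD and 0, 5.95 and 21.98 post-KD. Both conditions spanned nearly the same range in each region, and the log2 fold change of post-KD over pre-KD recipients was -0.88 (standard error 0.98, p = 0.372, adjusted p = 1 in edgeR) in hippocampus and -0.32 (standard error 0.70, p = 0.648, adjusted p = 0.998) in frontal cortex. Leaving out 1 donor moved these from -1.40 (without donor 3) to -0.51 (without donor 7) and from -0.82 (without donor 8) to -0.016 (without donor 5). *Clock* (ENSMUSG00000029238, chromosome 5 from 76209868 to 76304792), its partner, was detected in every library. In the hippocampus its lowest, median and highest CPM were 66.9, 96.0 and 234 pre-KD and 39.3, 81.0 and 106 post-KD. The library of pre-KD donor 5 lay well above the rest, and the next highest was donor 6 at 132 CPM. The log2 fold change was -0.42 (standard error 0.24, p = 0.0815, adjusted p = 0.655), with lower post-KD values for 5 of 10 donors, and it was -0.20 (p = 0.406) without donor 5. Frontal cortical *Clock* ran from 88.6 through a median of 99.7 to 170 CPM pre-KD, again highest in donor 5, and from 73.5 through 110 to 135 CPM post-KD, with a log2 difference of -0.04 (standard error 0.16, p = 0.779, adjusted p = 0.998).

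Among the period genes, whose products are the repressors of the loop, *Per1* (ENSMUSG00000020893, chromosome 11 from 69095217 to 69109960) had the widest spread of CPM over the 20 libraries of either region. Hippocampal *Per1* had a lowest, median and highest value of 0.727, 28.1 and 74.8 CPM pre-KD and of 1.67, 40.8 and 80.6 CPM post-KD. The low ends were 1 count in pre-KD donor 5 and 2 counts in post-KD donor 3, although the frontal cortex of the same 2 cohorts held 83 and 86 counts. *Per1* differed by 0.35 on the log2 scale between post-KD and pre-KD hippocampus (standard error 0.42, p = 0.406, adjusted p = 1, from 0.17 without donor 4 to 0.54 without donor 7) and by -0.33 in the frontal cortex (standard error 0.28, p = 0.243, adjusted p = 0.917). The frontal cortical difference rested on the pair of pre-KD donor 1, at 130 CPM against at most 83.1 in any other frontal cortex library, and post-KD donor 1, at 21.6 CPM, and was 0.016 with both libraries of that donor left out. *Per2* (ENSMUSG00000055866, chromosome 1 from 91415982 to 91459324) had a median of 24.5 CPM in hippocampus pre-KD (range 7.34 to 40.1), 18.5 in hippocampus post-KD (5.56 to 49.2), 16.3 in frontal cortex pre-KD (1.999 to 27.7) and 20.5 in frontal cortex post-KD (11.9 to 37.9). Its differences ran in opposite directions in the 2 regions and did not pass the test in either, at -0.29 (standard error 0.52, p = 0.584) and 0.39 (standard error 0.43, p = 0.366), with a post-KD value below the pre-KD value for 7 donors in hippocampus and 3 in frontal cortex. *Per3* (ENSMUSG00000028957, chromosome 4 from 151003652 to 151044665) was the most even, with means of 46.8 ± 16.7, 45.9 ± 21.8, 47.9 ± 25.6 and 47.8 ± 17.3 CPM in the same order of groups (SD, n = 10 each). Post-KD values were higher for 5 of 10 donors in each region, and the log2 fold changes were -0.03 (standard error 0.34, p = 0.923) and -0.01 (standard error 0.27, p = 0.978).

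*Cry1* and *Cry2* encode the cryptochromes, which bind the heterodimer and repress it together with the period proteins. *Cry1* (ENSMUSG00000020038, chromosome 10 from 85131700 to 85185064) averaged 10.7 ± 11.1 CPM in hippocampus pre-KD and 6.33 ± 12.1 in hippocampus post-KD, where 3 libraries had no count, 6 lay between 0.592 and 12.5 CPM and donor 9 reached 38.9 CPM. Frontal cortical *Cry1* was detected in all libraries, with 13.5 ± 7.53 CPM for pre-KD against 17.04 ± 7.24 CPM for post-KD (SD, n = 10 each). The groups overlapped in both regions, and the log2 fold changes were -0.77 (standard error 0.96, p = 0.426, adjusted p = 1) and 0.33 (standard error 0.46, p = 0.478, adjusted p = 0.986). Hippocampal *Cry1* was at -2.11 (p = 0.0566) without donor 9 and -0.26 without donor 1, and without donors 9 and 10 it was at -2.33 (unadjusted p = 0.0493, adjusted p = 0.476 in edgeR) and frontal cortical *Cry1* at 0.031. With the donor as a replicate block, hippocampal *Cry1* was at -2.51 (p = 0.0805 in edgeR) and hippocampal *Arntl* at -1.76 (p = 0.218). *Cry2* (ENSMUSG00000068742, chromosome 2 from 92403646 to 92434043) averaged 57.4 ± 25.4 and 64.3 ± 20.9 CPM in hippocampus pre-KD and post-KD and 72.6 ± 20.8 and 69.0 ± 26.3 CPM in frontal cortex pre-KD and post-KD, with log2 fold changes of 0.15 (standard error 0.29, p = 0.607) and -0.08 (standard error 0.21, p = 0.709). *Ciart* (ENSMUSG00000038550, chromosome 3 from 95878503 to 95882251), a further repressor of the heterodimer, had 0 to 37 counts per library. Its medians were 2.84 and 2.42 CPM in hippocampus pre-KD and post-KD and 6.21 and 13.02 CPM in frontal cortex pre-KD and post-KD, and in the frontal cortex 6 donors had the higher value in the post-KD cohort and 3 in the pre-KD cohort, a log2 difference of 0.63 (standard error 0.71, p = 0.380, adjusted p = 0.968). The hippocampal value of -0.35 (standard error 1.17, p = 0.763) was 0.11 once donor 2 was left out, with a pre-KD library that held 37 of the 81 pre-KD counts.

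*Nr1d1* (ENSMUSG00000020889, chromosome 11 from 98767932 to 98775333), the repressor of the second loop, was lower post-KD for 7 of 10 donors in each region, as was *Arntl*. Its lowest, median and highest CPM were 12.1, 58.4 and 95.5 in hippocampus pre-KD and 38.7, 43.5 and 78.4 in hippocampus post-KD. Frontal cortical values were 40.7, 90.5 and 115 pre-KD and 18.9, 58.4 and 98.0 post-KD. The ranges of the conditions overlapped in both regions, and neither log2 fold change passed the test, at -0.28 (standard error 0.30, p = 0.351, adjusted p = 1, and -0.17 without donor 4) and -0.43 (standard error 0.22, p = 0.0570, adjusted p = 0.550). The frontal cortical value had an unadjusted p between 0.0319 and 0.0442 when donor 1, 2, 6 or 10 was left out, with adjusted p of 0.427 or more in edgeR. *Dbp* (ENSMUSG00000059824, chromosome 7 from 45705088 to 45710203), the D-box-binding output of the loop, ran from 26.1 through a median of 48.1 to 128 CPM in hippocampus pre-KD and from 6.66 through 42.2 to 64.2 CPM in hippocampus post-KD, highest in pre-KD donor 5 and lowest in post-KD donor 7. Frontal cortical *Dbp* ran from 24.5 through 52.3 to 81.2 CPM pre-KD and from 23.0 through 47.3 to 85.04 CPM post-KD. The differences were -0.41 (standard error 0.34, p = 0.240, adjusted p = 0.965) and -0.13 (standard error 0.24, p = 0.589, adjusted p = 0.998). The first was -0.20 without donor 5 and -0.025 without the 2 hippocampus libraries with the fewest genes, and the second -0.039 without donor 1. How the counting treated strand was not found in the methods, and exons of *Dbp* and *Nr1d1* share 539 and 263 bases with the opposite-strand genes *Sphk2* and *Thra*, which is 18% and 8.55% of their exon bases, so reads there may belong to either gene. *Cry2* and *Arntl* share 295 and 33 exon bases in the same way, 4.67% and 0.439%.

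Across the set, 0 of 10 clock genes had an unadjusted p under 0.05 for the diet comparison in either region, where 10.1% of 17529 genes did in hippocampus and 9.68% of 17873 in frontal cortex. After adjustment over all genes 0 passed in edgeR, beside 0.0057% of all genes in hippocampus and 0.0056% in frontal cortex, and 0 passed in DESeq2. With the donor as a replicate block, the genes with an unadjusted p below this threshold fell to 348 for hippocampus and 548 for frontal cortex, and *Nr1d1* of the frontal cortex was among them (log2 fold change -0.46, unadjusted p = 0.0391, adjusted p = 1 in edgeR). In the hippocampus 8 genes were lower and 2 higher post-KD, with a median log2 fold change of -0.32 against -0.01 over all genes. In the frontal cortex 7 were lower and 3 higher, with a median of -0.06 against 0.01. Whether the post-KD difference of a gene differed between regions was tested as an interaction with a term for each cohort. No clock gene had an unadjusted p under 0.05, where 2.22% of 19422 genes did, and the adjusted p was 1 for all 10, where 0.0154% passed. The lowest unadjusted p was that of *Cry1* at 0.0606 (interaction on the log2 scale -2.27, standard error 1.21), which became -3.31 and p = 0.0168 without donors 9 and 10.

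**Figure D3:**
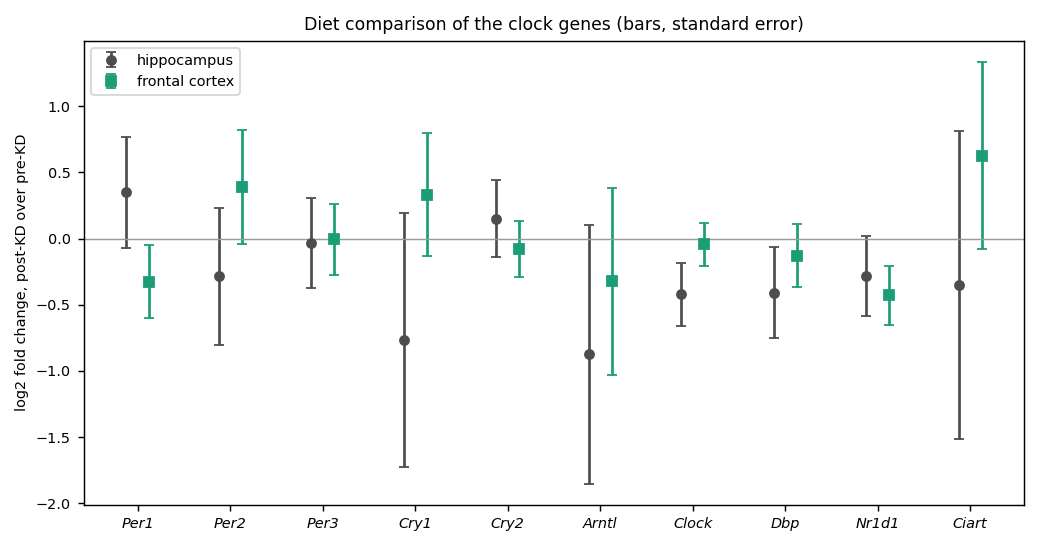
Log2 fold change of post-KD over pre-KD recipients for each clock gene in the hippocampus (circles) and the frontal cortex (squares), with bars giving the standard error from edgeR. Values run from -0.88 (*Arntl*) to 0.35 (*Per1*) in hippocampus and from -0.43 (*Nr1d1*) to 0.63 (*Ciart*) in frontal cortex, and 0 of the 20 had an unadjusted p under 0.05.

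The regions were next compared within cohorts, with hippocampus over frontal cortex and a term for each of the 20 cohorts. In this fit *Cry1* had the largest difference of the clock genes, whereas the ratio of means was larger for *Ciart* (1.90, frontal cortex over hippocampus) than for *Cry1* (1.79). *Cry1* averaged 8.54 ± 11.5 CPM in hippocampus and 15.3 ± 7.42 in frontal cortex (SD, n = 20 each) and was lower in the hippocampus of 15 of 20 cohorts. Its log2 fold change was -1.91 (standard error 0.62, unadjusted p = 0.00198), and the adjusted p in edgeR of 0.0653 did not pass, although it did in DESeq2 with the same terms (log2 fold change -1.87, adjusted p = 0.000552). Without the cohort terms the difference was -0.83 (unadjusted p = 0.0950). The other 9 genes had unadjusted p between 0.0652 and 0.860. *Clock* was lower in the hippocampus in 16 cohorts, *Nr1d1* in 15, *Ciart* in 15 and *Cry2* in 14, with log2 fold changes of -0.28, -0.32, -1.24 and -0.25. The median over all 19422 genes in this comparison was -0.17 and that of the 10 clock genes -0.30, so that 9 negative signs among 10 are read against a general shift in the same direction. One of these signs, that of *Arntl* at -0.89, went against its means of 8.95 CPM in hippocampal and 7.77 CPM in frontal cortical libraries and was 0.19 without the cohort terms. Between regions 10.9% of all genes had an unadjusted p under 0.05 and 2.85% an adjusted p under 0.05, and the clock genes gave 1 and 0 of 10 in edgeR.

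Whether both regions of a cohort shared a clock phase was asked by comparing their levels over the 20 cohorts, 10 correlations in all. A shared phase can show in such a correlation only if the cohorts were taken at different clock hours. The hours are not known, and cohorts taken at the same hour could share a phase with r near 0. These correlations therefore describe likeness of levels and cannot decide whether the phase was shared. Across cohorts, log2 CPM of the hippocampus and the frontal cortex were correlated for *Clock* (Pearson's r = 0.60, permutation p = 0.00544; Spearman's rho = 0.49, permutation p = 0.0293) and *Per3* (r = 0.51, p = 0.0289; rho = 0.45, p = 0.0499). Neither held after adjustment over the 9928 genes averaging at least 10 counts in both regions, with adjusted p of 0.669 and 0.902. For *Clock*, 234 CPM in hippocampus and 170 CPM in frontal cortex of pre-KD donor 5 were each the highest of their region, and r fell to 0.17 without the 2 cohorts farthest from the hippocampal median and to 0.36 without the 2 hippocampus libraries with the fewest genes, 1 of which is pre-KD donor 5. It was 0.77 without donors 9 and 10, 0.76 in pre-KD cohorts alone and 0.49 in post-KD cohorts alone. For *Per3*, lowest in pre-KD donor 10 in the frontal cortex and second lowest there in the hippocampus, r was 0.17 without the 2 farthest cohorts, pre-KD donor 10 and post-KD donor 5, and 0.38 without donors 9 and 10. Without pre-KD donor 5 alone the *Clock* correlation was 0.39. It was 0.70 in donors 1 to 5 and 0.62 in donors 6 to 10 alone, and the *Per3* correlation was 0.34 and 0.69.

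The remaining members had correlations between regions of 0.39 for *Cry1* (permutation p = 0.0873), 0.35 for *Dbp* (p = 0.127), 0.24 for *Ciart* (p = 0.311), 0.02 for *Per1* (p = 0.926), -0.09 for *Nr1d1* (p = 0.705), -0.10 for *Arntl* (p = 0.682), -0.22 for *Cry2* (p = 0.341) and -0.26 for *Per2* (p = 0.275). For *Dbp*, post-KD donor 7 was the lowest library of both regions, at 6.66 and 23.0 CPM, and r was 0.072 without that cohort, 0.49 without post-KD donor 9 and 0.50 without donors 9 and 10. *Per2* was at 40.1 CPM in the hippocampus of pre-KD donor 9, the highest of the pre-KD hippocampus libraries, and at 1.999 CPM in the frontal cortex of the same mice, the lowest of that region. *Nr1d1* showed the reverse order in that cohort, at 12.1 CPM in the hippocampus, the lowest of 20, and 85.3 CPM in the frontal cortex. Of 9 clock genes past the count filter, 2 had an unadjusted p under 0.05 (Pearson's test) and 0 an adjusted p under 0.05, beside 5.25% and 0.0504% of all genes, and their median r of 0.02 was near the 0.01 of all genes. Spearman's rho of these 8 genes lay between -0.25 for *Per2* and 0.39 for *Cry1*, with permutation p of 0.0911 or more. The 20 cohorts share 10 donors, so they are not wholly independent.

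**Figure D4:**
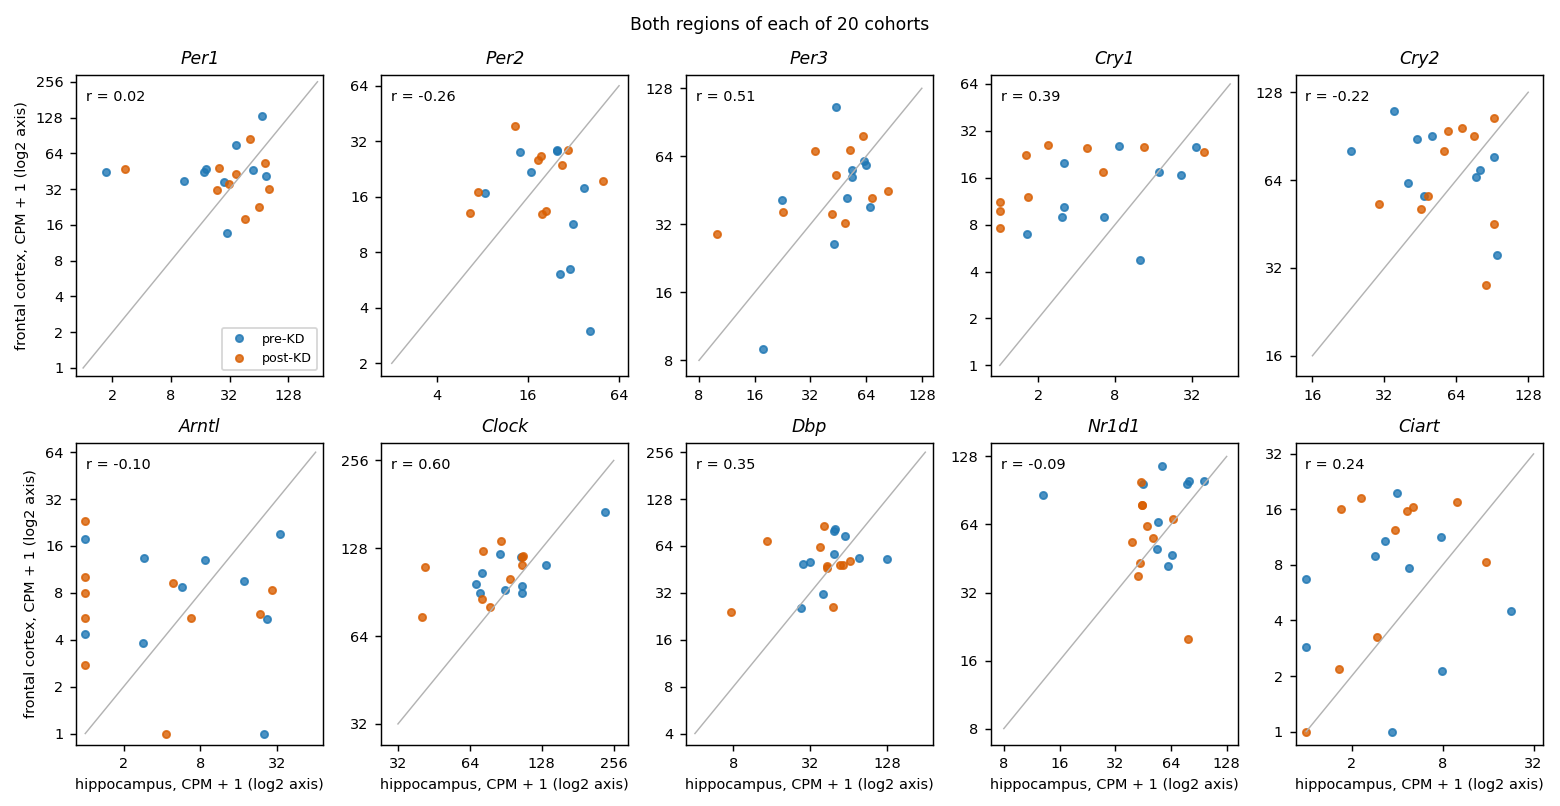
CPM + 1 of each clock gene in the hippocampus (x axis, log2 scale) and the frontal cortex (y axis, log2 scale) of 20 cohorts, pre-KD in blue and post-KD in orange, with the line of equal levels in gray and Pearson's r of log2 CPM (prior count 2) in each panel. The correlation is highest for *Clock* (r = 0.60), where pre-KD donor 5 lies far to the upper right, and near 0 for *Per1* (r = 0.02) and *Arntl* (r = -0.10).

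The genes were then compared with one another within a region, with 9 correlations with *Dbp* in each. Clock phase can set the sign of these correlations only where the libraries differ in clock hour, which is not known. Values near 0 therefore cannot decide whether the loop was running. With *Dbp* as the reference over the 20 libraries of a region, *Nr1d1* had r = 0.12 in hippocampus and 0.15 in frontal cortex (permutation p = 0.568 and 0.531), *Per1* -0.36 and -0.14 (p = 0.126 and 0.572), *Per2* 0.04 and -0.11 (p = 0.871 and 0.643), *Per3* -0.03 and 0.26 (p = 0.902 and 0.262) and *Ciart* -0.29 and 0.22 (p = 0.222 and 0.342). *Arntl*, a gene of the opposite phase, had r = 0.13 and 0.24 (p = 0.599 and 0.316), and *Clock* 0.13 and -0.22 (p = 0.577 and 0.354). The cryptochromes had r = -0.12 and 0.07 for *Cry1* (p = 0.616 and 0.778) and -0.14 and 0.10 for *Cry2* (p = 0.573 and 0.688). Of 8 and 9 clock genes past the count filter in the hippocampus and the frontal cortex, 0 reached an unadjusted p under 0.05, where 8.56% of 10359 and 4.99% of 10554 genes did. After adjustment 0% of all genes passed in either region. Spearman's rho with *Dbp* lay between -0.36 and 0.34 in hippocampus and between -0.21 and 0.17 in frontal cortex, with permutation p of 0.117 or more. The 2 farthest libraries from the *Dbp* median were left out as well, and r then lay between -0.61 (*Ciart* in the hippocampus) and 0.49 (*Per3* in the frontal cortex).

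Over all 45 pairs of clock genes, given as a description across 20 libraries that share depth and normalization, r ran from -0.37 to 0.57 in the hippocampus, with a median of -0.03, and from -0.38 to 0.50 in the frontal cortex, with a median of 0.02. The highest hippocampal pair was *Per2* with *Ciart* at 0.57, followed by *Cry1* with *Arntl* at 0.49 and *Cry1* with *Nr1d1* at 0.47. The highest frontal cortical pair was *Nr1d1* with *Ciart* at 0.50, both E-box targets of the loop in other tissues, followed by *Per1* with *Cry1* at 0.43. *Arntl* with *Nr1d1*, the repressed gene and its repressor, had r = 0.41 in hippocampus and -0.19 in frontal cortex. The sign was the same in both regions for 21 of 45 pairs, and 0 pairs were above 0.5 in size in both. *Ciart*, *Per1* and *Cry1*, which share the E-box printed above, had r of 0.36 (*Per1* with *Ciart*), -0.03 (*Per1* with *Cry1*) and -0.32 (*Cry1* with *Ciart*) in the hippocampus and of -0.085, 0.43 and -0.10 for the same pairs in frontal cortical libraries.

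**Figure D5:**
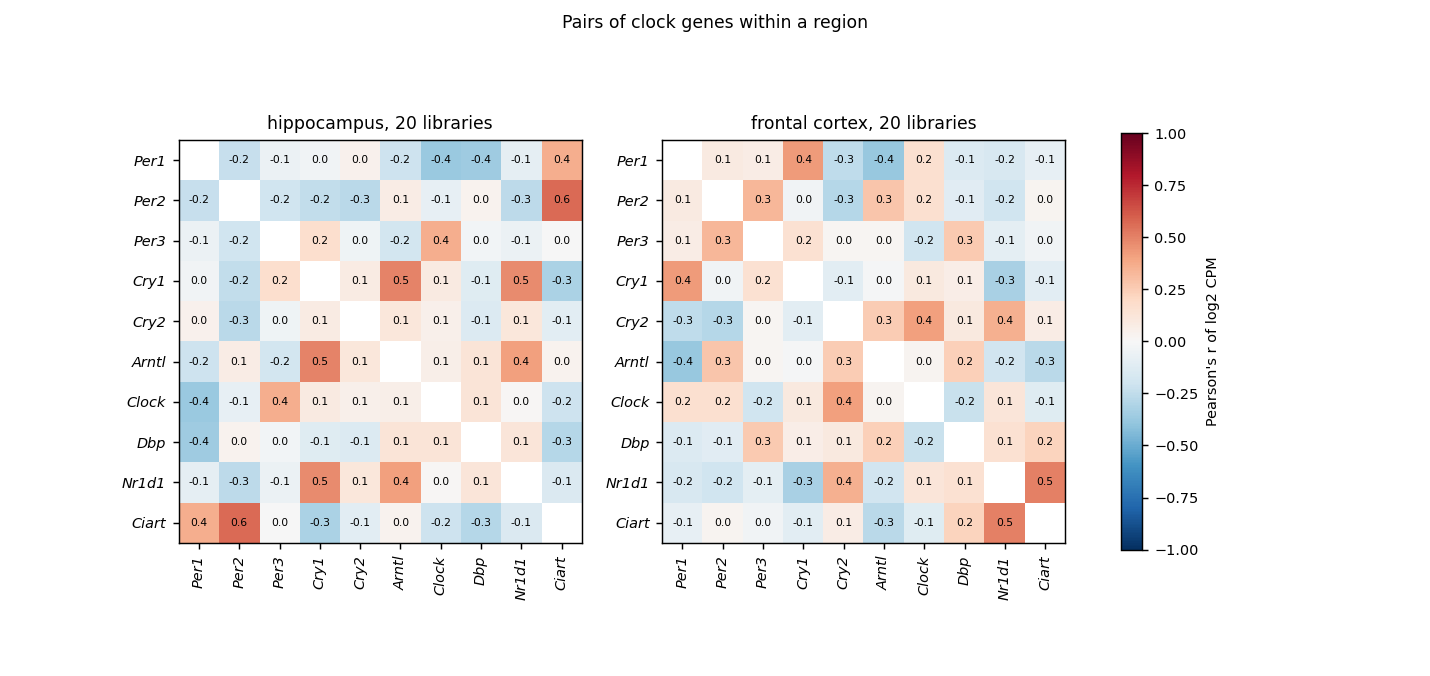
Pearson's r of log2 CPM for all 45 pairs of clock genes over the 20 libraries of the hippocampus (left) and of the frontal cortex (right), red for positive and blue for negative values on a scale from -1 to 1. Only *Per2* with *Ciart* in hippocampus (0.57) and *Nr1d1* with *Ciart* in frontal cortex (0.50) exceed 0.5, and 21 of the 45 pairs have the same sign in both regions.

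The genes most like *Dbp* among all genes past the count filter were not listed clock genes. In the hippocampus they were *Uba3* (r = 0.82), *Tbpl1* (0.79), *Mrps18a* (0.75), *Golim4* (0.75) and *Nfatc3* (0.72), and the most opposite were *Tob1* (-0.75), *Sqstm1* (-0.72) and *Cox7a2* (-0.72). In the frontal cortex the highest were *Stag1* (r = 0.80), *Gpcpd1*, *Ypel1*, *Nxf1* and *Tcf12* (0.71, 0.71, 0.71 and 0.70), and the lowest *Sass6*, *Rgs8* and *Gm5124* (-0.82, -0.67 and -0.67). Their adjusted p lay between 0.0811 and 0.785, and the lists of the 2 regions had no gene in common.

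A donor's 2 cohorts were compared as a further check of shared levels. Over the paired cohorts of 10 donors, the highest r in the hippocampus was that of *Per1* at 0.39 (permutation p = 0.211; rho = 0.67, p = 0.0390), and in the frontal cortex that of *Per2* at 0.61 (p = 0.0608) and *Ciart* at 0.61 (p = 0.0633), the latter falling to -0.06 without the 2 farthest donors. The same omission moved hippocampal *Per3* from -0.21 to -0.82, *Dbp* to -0.69 and *Per1* to 0.62, and frontal cortical *Nr1d1* from 0.49 to 0.76. *Dbp* had r = -0.39 in hippocampus (p = 0.265) and 0.20 in frontal cortex (p = 0.589). Of 7 hippocampal and 9 frontal cortical clock genes past the count filter, 0 had an unadjusted p under 0.05 by Pearson's test, beside 5.32% and 4.86% of all genes, and 0 an adjusted p under 0.05, beside 0.0104% and 0.02%.

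Another 22 genes of the clock and its regulators, from the paralogs *Npas2*, *Arntl2* and *Nr1d2* to the ROR receptors, kinases and ubiquitin ligase subunits, were read the same way. In the hippocampus 13 had a positive and 9 a negative diet difference, with a median log2 fold change of 0.05, and the same counts held in the frontal cortex, with a median of 0.03. In the hippocampus 1 of these 22 genes had an unadjusted p under 0.05 and 0 an adjusted p under 0.05, beside 10.1% and 0.0057% of all genes. That gene was *Csnk1e*, a casein kinase that phosphorylates period proteins. It averaged 134 ± 37.7 CPM in recipients of pre-KD stool against 98.9 ± 24.5 CPM in those of post-KD stool (SD, n = 10 each), lower post-KD for 8 of 10 donors. Its log2 fold change was -0.45 (standard error 0.21, unadjusted p = 0.0335, adjusted p = 0.390), and with the donor block the unadjusted p was 0.0621. Between regions, 2 of 22 passed the adjusted threshold, both lower in the hippocampus, where 1.98% of all genes were. *Rorb*, an orphan receptor of the ROR family, averaged 123 ± 36.1 CPM in hippocampus and 181 ± 45.3 in frontal cortex (SD, n = 20 each), was lower in the hippocampus of 18 of 20 cohorts, and gave a log2 fold change of -0.57 (its standard error 0.13, adjusted p = 0.000699 in edgeR). *Rora*, which activates *Arntl* through the element that NR1D1 also binds, averaged 101 ± 33.3 and 142 ± 26.0 CPM, was lower in 17 of 20 cohorts, and gave a log2 fold change of -0.55 (its standard error 0.14, adjusted p = 0.00496 in edgeR). Its 2 lowest libraries, at 29.1 and 40.7 CPM, were the hippocampus of pre-KD donors 5 and 7, and without these 2 cohorts the value was -0.44 (adjusted p = 0.0553). *Fbxl21*, *Arntl2*, *Nfil3* and *Nr1d2*, the other 4 with the largest fold changes between regions, had values of -1.85, -1.03, -0.81 and -0.60 and adjusted p of 0.157 or more in edgeR. *Nr1d2*, a paralog of *Nr1d1*, had an adjusted p of 0.0323 in DESeq2 and of 0.0267 without the cohort terms. *Arntl2* has no set direction, since its mean was 5.48 CPM in hippocampal against 3.22 CPM in frontal cortical libraries and its value 0.76 without the cohort terms. *Nfil3* had near equal means, 5.48 and 5.70 CPM, and was higher in the hippocampus in 9 cohorts and lower in 10. In the likeness between regions and in that with *Dbp*, 0 of the 16 listed genes past the count filter passed after adjustment. Before adjustment (Pearson's test), 1 of 16 had p under 0.05 between regions, beside 5.25% of all genes. With *Dbp*, 2 did in hippocampus and 1 in frontal cortex, beside 8.56% and 4.99% of all genes.

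Markers of other tissue were set beside the clock genes as a description over the 20 libraries of a region. Hippocampal *Arntl* had r = 0.67 with the summed CPM of 7 striatal markers, which ranged from 34.5 to 306 in that region and of which *Drd2* was at 0 throughout. *Clock* had r = 0.56 with the sum of 6 hippocampus markers, which ranged from 353 to 872. Most of that sum was *Wipf3*, which averaged 390 ± 139 CPM there and 208 ± 47.9 CPM in frontal cortex. In the frontal cortex *Arntl* had r = 0.56 with the total count and *Per2* r = -0.55 with the Y-linked sum. *Per1* and *Dbp* had r of 0.20 and -0.36 in the hippocampus with the sum of 10 immediate early genes and of -0.25 and 0.17 with that of 10 glucocorticoid-responsive genes, with which *Per2* had 0.45 and *Cry2* -0.48. Their part in the results was not tested. Between post-KD and pre-KD recipients, 0 of the 10 immediate early and 0 of the 10 glucocorticoid-responsive genes had an unadjusted p under 0.05 in either region. Of all genes, 10.1% did in hippocampus and 9.68% in frontal cortex. Of the tissue lists, 1 of 6 hippocampus and 1 of 6 striatal markers tested did in hippocampus, and 2 of 6 striatal and 2 of 4 blood markers in frontal cortex. After adjustment 0 passed, beside 0.0057% of all genes in hippocampus and 0.0056% in frontal cortex.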

How the data were processed

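Brain tissue of 20 cohorts gave 40 RNA-seq libraries (1 hippocampus and 1 frontal cortex per cohort, each pooled from 6 mice). The authors deposited 1 table of raw read counts per gene for each region, made, per the labels and methods, with a TruSeq kit, bbduk trimming, STAR 2.5.2a on mm10 and HTSeq 0.6.0 (a resource list of the study also names a QuantSeq kit). The strand setting and annotation release are not given in the sources used here. Of 47643 Ensembl identifiers, 47224 matched GENCODE M21, which gave symbols, coordinates and exon lengths, and 419 did not. Counts were normalized by TMM to CPM. Genes with at least 10 summed counts entered the quasi-likelihood test of edgeR 4.0.16 in R 4.3.3, with p-values adjusted by Benjamini-Hochberg over all genes tested, and DESeq2 1.42.0 as an alternative. Standard errors are the size of the log2 fold change divided by the square root of the F statistic. Correlations used log2 CPM with a prior count of 2, 2-sided permutation p from 100000 resamples, and, for adjustment, Pearson's test over genes averaging at least 10 counts. The edgeR and correlation steps were tested on simulated data. Replicates are cohorts of different donors. The same donors pair pre-KD with post-KD cohorts, but deviations of same-donor libraries correlated between -0.0280 and 0.0299 in hippocampus and between -0.0561 and 0.0313 in frontal cortex, with 0 of 10 pairs over 0.1. Region comparisons carried cohort terms. The clock genes and lists were chosen with earlier results of these data known. Named beside the members were other clock genes with an unadjusted p under 0.05 in a diet comparison or an adjusted p under 0.05 in a correlation, the 6 with the largest region differences, and the 5 genes most like and 3 least like *Dbp*. A result for 1 gene that this rule names is not reported here. Promoters are from RefSeq. Alternatives were other size factors, filters, tools, blocks, prior counts and left-out donors or libraries.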

Additional observations from a re-analysis of the deposited data

Results flagged for a closer look

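In 8 of 40 groups of 10 libraries (10 genes in 4 groups), 1 library stood further from its nearest neighbor, relative to the range of the group, than Dixon's critical value allows. For normally distributed values chance gives this in about 1 of 20 groups, but CPM is skewed, and over all genes at like counts 13.2% of 35612 groups met it, 96.3% of them by the highest library, as did all 8 here. The cohort of pre-KD donor 5 accounted for 3 of them: *Clock* at 234 CPM in the hippocampus (next 132) and 170 CPM in the frontal cortex (next 122), and *Dbp* at 128 CPM in the hippocampus (next 76.8). That hippocampus library also had the fewest genes with a count. The others were *Per1* at 130 CPM in the frontal cortex of pre-KD donor 1 (next 74.5), *Per2* at 49.2 CPM in the hippocampus of post-KD donor 5 (next 28.5), *Cry1* at 38.9 CPM in the hippocampus of post-KD donor 9 (next 12.5), *Arntl* at 22 CPM in the frontal cortex of post-KD donor 8 (next 9.06) and *Ciart* at 21.7 CPM in the hippocampus of pre-KD donor 2 (next 6.96).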

How the results depend on the processing

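Of 997 values recomputed for single clock genes and the genes most like *Dbp*, 935 kept their sign and 62 did not; for those given here the cause was not tested unless the setting itself removes libraries. Alternatives that leave out donors 9 and 10, the hippocampus libraries with the fewest genes or single cohorts, or take donors 1 to 5 and 6 to 10 alone, were chosen after seeing the data. Low counts limit *Arntl*, *Ciart* and hippocampal *Cry1*. Summed over 20 libraries, *Arntl* had 269 counts in hippocampus and 275 in frontal cortex. *Ciart* had 137 and 275, and hippocampal *Cry1* had 269.

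Between post-KD and pre-KD recipients, genes with an unadjusted p under 0.05 numbered 2931 in hippocampus and 3035 in frontal cortex with every gene counted, 221 and 407 with filterByExpr, 348 and 548 with the donor as a replicate block, and 599 and 825 in DESeq2. After adjustment the hippocampus gave 1291, 0, 0 and 0 genes in that order and 0 to 1 when single donors were left out, and the frontal cortex gave 3 with the block and 2 in DESeq2. The block changed no adjusted call of a clock gene. Without donors 9 and 10, hippocampal *Per2* was -0.034, *Per3* -0.14, *Cry2* 0.031, *Nr1d1* -0.46 and *Ciart* -0.10, and frontal cortical *Per1* was -0.50, *Per2* 0.25, *Per3* -0.38, *Cry2* -0.17, *Clock* -0.12 and *Dbp* -0.26. Without the 2 hippocampus libraries with the fewest genes, *Clock* was -0.19, *Ciart* -0.66 and *Per3* -0.051. The block gave 0.61 for *Per2* and -0.12 for *Cry2* in the frontal cortex and -0.067 for hippocampal *Per3*. *Per3* in the frontal cortex turned to 0.0016 with RLE size factors, 0.078 with the block and 0.0015 in DESeq2. Leaving out 1 donor gave -0.18 to 0.15 for *Per3* and -0.93 to 0.11 for *Ciart* in the hippocampus, and -0.54 to 0.016 for *Per1*, -0.20 to 0.21 for *Per3*, -0.20 to 0.0083 for *Cry2* and -0.12 to 0.022 for *Clock* in the frontal cortex. The signs of the others held, from 0.17 to 0.54 for *Per1*, -0.54 to -0.077 for *Per2*, -2.11 to -0.26 for *Cry1*, 0.041 to 0.31 for *Cry2*, -1.40 to -0.51 for *Arntl*, -0.49 to -0.20 for *Clock*, -0.58 to -0.20 for *Dbp* and -0.40 to -0.17 for *Nr1d1* in the hippocampus, and from 0.30 to 0.54 for *Per2*, 0.19 to 0.47 for *Cry1*, -0.82 to -0.016 for *Arntl*, -0.22 to -0.039 for *Dbp*, -0.50 to -0.35 for *Nr1d1* and 0.44 to 0.87 for *Ciart* in frontal cortical libraries.

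Without the replicate block of cohorts, the region comparison gave 3681 genes unadjusted and 2101 adjusted, with *Arntl* at 0.19 and *Arntl2* at 0.76, and the interaction 1767 and 348. DESeq2 gave 1033 adjusted between regions, among them *Cry1* as 1 of the 10 clock genes and *Rora*, *Rorb*, *Nr1d2* and *Gsk3b* of the other list. Without donors 9 and 10 the interaction of *Per3* was 0.021 and of *Nr1d1* -0.068.

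For the likeness between regions, genes past adjustment numbered 3 at a mean of 50 counts, 3 in pre-KD and 2 in post-KD cohorts alone, 0 in donors 1 to 5, 2 without donors 9 and 10, and 1 with Spearman's rho. In post-KD cohorts alone r was -0.17 for *Per1*, 0.24 for *Per2* and 0.070 for *Cry2*, and in donors 6 to 10 it was 0.30 for *Cry2*, 0.30 for *Arntl* and 0.072 for *Nr1d1*, which had 0.00072 in pre-KD cohorts alone and a rho of 0.18. Leaving out 1 cohort gave -0.11 to 0.078 for *Per1*, -0.23 to 0.067 for *Arntl* and -0.19 to 0.089 for *Nr1d1*. Without donors 9 and 10 r was 0.041 for *Per1*, -0.085 for *Per2*, 0.29 for *Cry1*, -0.21 for *Cry2*, -0.16 for *Arntl*, -0.018 for *Nr1d1* and 0.26 for *Ciart*. Without the cohorts of the hippocampus libraries with the fewest genes it was 0.056 for *Per1*, -0.30 for *Per2*, 0.55 for *Per3*, 0.41 for *Cry1*, -0.24 for *Cry2*, -0.014 for *Arntl*, 0.38 for *Dbp*, -0.14 for *Nr1d1* and 0.19 for *Ciart*.

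For the likeness to *Dbp* in the hippocampus, 1 gene passed adjustment with a prior count of 0.5 and 1 without donors 9 and 10. In pre-KD libraries alone r was -0.12 for *Per2*, 0.081 for *Per3*, 0.12 for *Cry1*, -0.20 for *Arntl* and -0.10 for *Nr1d1*, and in post-KD libraries alone 0.077 for *Cry2* and -0.37 for *Clock*. Without donors 9 and 10 it was -0.19 for *Per2*, 0.042 for *Per3* and 0.073 for *Cry1*, and *Clock* had -0.29 without the libraries with the fewest genes. Without the 2 farthest libraries it was -0.092 for *Per2*, 0.095 for *Per3*, 0.19 for *Cry1*, -0.086 for *Arntl* and -0.0062 for *Nr1d1*. In the frontal cortex r was 0.14 for *Per1* and -0.43 for *Arntl* in pre-KD libraries, -0.12 for *Nr1d1* and -0.29 for *Ciart* in post-KD libraries, -0.0048 for *Cry1* without donors 9 and 10, and 0.053, 0.042 and -0.017 for *Per1*, *Per2* and *Nr1d1* without the 2 farthest libraries. For the cohorts of a donor, a prior count of 0.5 gave 3 genes past adjustment in hippocampus and 1 in frontal cortex, and without the 2 farthest donors r was -0.34 for hippocampal *Nr1d1* and 0.19, 0.028 and -0.28 for frontal cortical *Per1*, *Per3* and *Cry1*.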
